A study of Mus musculus with 2 samples.

Results

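The cells described here were thymic epithelial cells with Aire transcripts and few or none of a set of genes of dividing cells. They were picked from a single droplet library of mouse thymus (10x Genomics, 3' chemistry) by criteria on the counts. A cell needed at least 500 detected genes, under 15% mitochondrial UMIs, at least 3 UMIs of Krt5, Krt8, Krt14, Krt18 and Epcam together and no Ptprc (CD45) UMI. It also needed at least 2 Aire UMIs and fewer than 4 of 9 genes of dividing cells detected (Mki67, Top2a, Birc5, Cdk1, Ube2c, Cenpf, Rrm2, Ccnb1 and Pclaf). A UMI marks 1 captured RNA molecule. Of 3447 barcodes in the deposited matrix, 2527 passed the gene and mitochondrial limits, 1808 of those were epithelial, and 112 were Aire-positive and non-cycling. The cells set beside them were 1510 epithelial cells with no Aire UMI (Aire-negative cells) and 67 Aire-positive cells with 4 or more of the 9 genes (cycling Aire-positive cells), both under the same limits.

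The study compared thymic mimetic cells between 3 inbred strains of mice, NOD, BALB/c and C57BL/6 (B6). The donors were 6-week-old females, 2 of each strain, with no allele or agent named in the labels. Every mouse shared the same preparation: leukocytes were depleted through CD45, and medullary cells low in MHC class II protein that lacked Pdpn and CD104 were sorted. Each mouse received its own hashtag antibody before pooling, although the label of the hashtag library writes replicate 1 for both NOD hashtags; they are treated here as NOD 1 and NOD 2. The sort bears on what follows, because Aire-positive cells with abundant MHC class II protein lie outside this gate by design.

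Aire is a transcriptional regulator of medullary thymic epithelial cells (mTEC) that promotes low-level transcription of many genes otherwise restricted to peripheral tissues, so that developing T cells meet those self-antigens. In mice, Aire-positive mTEC are known for abundant MHC class II, for costimulatory ligands such as Cd80, and for dependence on RANK and CD40 signals that act through NF-kB. They can later lose Aire and take on the programs of other tissues as mimetic cells, such as tuft, keratinocyte-like or ciliated-like cells.

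Where the limits of the rule fell is shown by the counts. Aire ranged over 2 to 94 UMIs per cell with a median of 7.5. Of the 112 cells, 22 sat at the lower limit of 2 UMIs, 10 had 3 and 47 had 10 or more, while 77 non-cycling epithelial cells with 1 Aire UMI fell just outside. On the cycling side 47 cells had none of the 9 genes, 33 had 1, 20 had 2 and 12 had 3, and 8 Aire-positive cells with 4 fell just outside. As a measure of free RNA, of 177 Ptprc-positive cells that failed the keratin rule (median 6239 UMIs), 2 (1.13%) held at least 1 Aire UMI and 0 held at least 2, against 266 of 1808 epithelial cells (14.7%, median 15247 UMIs) with at least 1.

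Depth differed between the classes. The Aire-positive cells held a median of 32224 UMIs per cell, the cycling Aire-positive cells 46002 and the Aire-negative cells 13592.5, and a minimum of 2 UMIs of 1 gene is met more easily by a deep cell. Their median mitochondrial share was 1.18%, against 2.53% in Aire-negative cells. Hashtags assigned 75 of the 112 cells to a mouse: 10 to NOD 1, 9 to NOD 2, 15 to BALB/c 1, 26 to BALB/c 2, 7 to B6 1 and 8 to B6 2. The other 37 (33.0%, against 15.9% of Aire-negative cells) stayed out of every test; they had a median of 138 hashtag UMIs, 12 of them had fewer than 100, and 5 had 1000 or more. Sums per mouse ranged over 158743 to 707341 UMIs for the Aire-positive cells and 1278634 to 7254164 for the Aire-negative cells. Below, CPM are UMIs per 1000000 UMIs summed over the cells of a mouse. The mouse is the replicate, and a change is called at an adjusted p under 0.05 in the quasi-likelihood test of edgeR.

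Aire-positive non-cycling cells made up a larger share of epithelial cells in NOD mice than in the other strains, but 2 mice a strain did not separate this by an exact test. The shares were 9.01% in NOD 1 and 8.04% in NOD 2 (Clopper-Pearson 95% intervals 4.41 to 15.9% and 3.74 to 14.7%), 4.16% in BALB/c 1, 4.81% in BALB/c 2, 3.89% in B6 1 and 4.26% in B6 2. Both NOD values lay above all 4 others. The means were 8.52 ± 0.688% in NOD, 4.48 ± 0.466% in BALB/c and 4.07 ± 0.259% in B6 (SD, n = 2 mice each). An exact two-sided permutation test over the 90 arrangements of the strain labels gave p = 0.133, where the smallest possible p was 0.0667. That smallest value was reached when 3 Aire UMIs were required (7.63%, 3.51% and 2.72% as means of NOD, BALB/c and B6) and when all assigned cells served as denominator. Other settings went the other way. With at least 1 Aire UMI the means were 13.5%, 8.41% and 10.9%, with B6 above BALB/c (exact permutation p = 0.133). A 90% hashtag share and HTODemux each gave an exact permutation p of 0.2.

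The label was checked against the marker genes that the rule did not use. Fezf2, Cd80 and Ciita were all higher in Aire-positive than in Aire-negative cells of each of the 6 mice. Aire itself, which chose the cells (chromosome 10, 78030022 to 78043610, minus strand, mm10), stood at 684 CPM in NOD 1, 251 in NOD 2, 831 in BALB/c 1, 701 in BALB/c 2, 542 in B6 1 and 296 in B6 2, and was at 0 in the Aire-negative cells by definition.

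Fezf2 (chromosome 14, 12342094 to 12348189), a zinc-finger factor that directs a set of tissue-restricted genes in mTEC independently of Aire, had 593 CPM in NOD 1, 362 in NOD 2, 958 in BALB/c 1, 646 in BALB/c 2, 624 in B6 1 and 509 in B6 2 among Aire-positive cells. Among Aire-negative cells it had 119 CPM in NOD 1, 116 in NOD 2, 118 in BALB/c 1, 124 in BALB/c 2, 121 in B6 1 and 124 in B6 2. The classes did not overlap, and the Aire-negative values were nearly constant over mice (log2 difference 2.49 ± 0.23 SE, edgeR adjusted p = 6.63e-05).

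Ciita (chromosome 16, 10480059 to 10528418), the coactivator that switches on MHC class II genes, had 135 CPM in NOD 1, 149 in NOD 2, 131 in BALB/c 1, 199 in BALB/c 2, 176 in B6 1 and 107 in B6 2 in Aire-positive cells. Aire-negative cells had 46.9 CPM in NOD 1, 55.7 in NOD 2, 45.3 in BALB/c 1, 37.6 in BALB/c 2, 10.6 in B6 1 and 17.6 in B6 2. It was higher without overlap (log2 difference 2.4 ± 0.32 SE, edgeR adjusted p = 0.000499), and its Aire-negative level was lowest in both B6 mice. Cd80 (chromosome 16, 38455561 to 38496335), a ligand of CD28 on T cells, had 67.6 CPM in NOD 1, 72.4 in NOD 2, 116 in BALB/c 1, 102 in BALB/c 2, 31.5 in B6 1 and 81.7 in B6 2 in Aire-positive cells. Aire-negative cells had 31.3 CPM in NOD 1, 22 in NOD 2, 23.3 in BALB/c 1, 15 in BALB/c 2, 25 in B6 1 and 26.2 in B6 2. The classes just failed to touch, with B6 1 the lowest Aire-positive value (log2 difference 1.97 ± 0.33 SE, edgeR adjusted p = 0.00147).

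**Figure D1:**
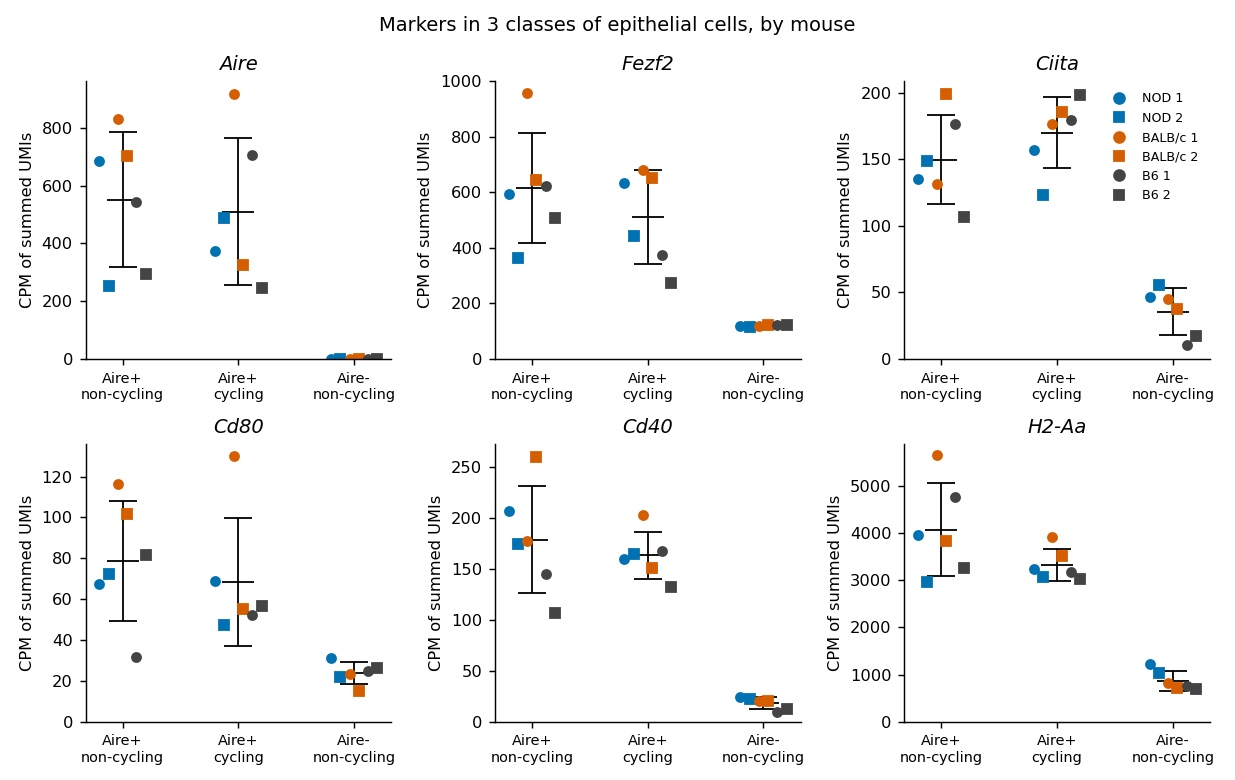
Levels of Aire, Fezf2, Ciita, Cd80, Cd40 and H2-Aa per mouse (CPM), with Aire-positive non-cycling, cycling Aire-positive and Aire-negative cells set side by side, 1 point per mouse, and bars for the mean ± SD of the 6 mice (B6 2 had 2 cycling cells). Fezf2, Ciita, Cd40 and H2-Aa were higher in the Aire-positive cells of all 6 mice than in any Aire-negative sum; Cd80 came closest to overlap, at 31.5 CPM in the Aire-positive cells of B6 1 against 31.3 CPM in the Aire-negative cells of NOD 1.

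Against Aire-negative cells of the same mice, 1394 of 10016 genes tested (13.9%) were higher in Aire-positive cells and 1692 (16.9%) were lower, with mouse as a block, so a count over any list has to be read against those percentages. The median log2 difference of all genes tested was -0.11. The Aire-negative cells were not split by type: their summed level of tuft markers was 1713 to 5201 CPM, and that of keratinocyte markers 2114 to 9321 CPM, so a difference can arise from either class.

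Of 14 genes named as markers of mature mTEC, 10 were tested, 8 were higher and none lower, with a median log2 difference of 2.31. Cd40, the receptor for CD40 ligand on thymocytes, had 207 CPM in NOD 1, 175 in NOD 2, 178 in BALB/c 1, 260.1 in BALB/c 2, 145 in B6 1 and 107 in B6 2 in Aire-positive cells. Aire-negative cells had 24.2 CPM in NOD 1, 22 in NOD 2, 20.1 in BALB/c 1, 19.9 in BALB/c 2, 9.41 in B6 1 and 12.3 in B6 2. This was a separation in every mouse (log2 difference 3.53 ± 0.22 SE, edgeR adjusted p = 9.29e-06). Ubd (FAT10), a ubiquitin-like modifier of mature mTEC, ranged over 852 to 3080 CPM in Aire-positive and 174 to 859.6 CPM in Aire-negative cells, higher within every mouse although the lowest Aire-positive value, from BALB/c 2, lay just under the highest Aire-negative one, from B6 2 (log2 difference 2.61 ± 0.27 SE, edgeR adjusted p = 0.000123). Cd52 and Tnfrsf11b (osteoprotegerin, the decoy receptor of RANK ligand) did not pass (log2 differences 0.39 ± 0.87 and 1.21 ± 0.95, edgeR adjusted p = 0.771 and 0.378).

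MHC class II genes were mostly higher. Of 17 genes of the pathway, all tested, 13 were higher and none lower, and the median log2 difference was 2.26, against the -0.11 of all genes. The 4 that did not pass were H2-Ea, which is discussed with the strains, and the promoter-binding subunit genes Rfx5, Rfxap and Rfxank.

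Several of these genes share promoter elements through which Ciita is known to act, the X box bound by the RFX complex and the Y box bound by NF-Y. The 150 bases before the start of 4 class II genes, picked from the 13 that rose, are printed below from RefSeq (GRCm38.p6, the patch release of mm10). Capitals mark matches to an X box core (AG, 2 bases of any kind, AC, 1 base of any kind, then GATG) and a Y box core (GATTGG, or CCAATC on the other strand), searched on both strands. Each is on chromosome 17: H2-Aa at chr17:34287824-34287973 (minus strand), H2-DMb1 at chr17:34153041-34153190, H2-Eb1 at chr17:34305717-34305866 and H2-Eb2 at chr17:34325525-34325674 (plus strand).
H2-Aa: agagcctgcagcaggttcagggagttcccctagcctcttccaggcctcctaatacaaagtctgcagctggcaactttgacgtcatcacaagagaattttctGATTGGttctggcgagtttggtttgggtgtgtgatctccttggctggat
H2-DMb1: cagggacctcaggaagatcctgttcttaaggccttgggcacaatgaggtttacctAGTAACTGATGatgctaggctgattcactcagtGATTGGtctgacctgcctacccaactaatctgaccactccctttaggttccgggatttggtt
H2-Eb1: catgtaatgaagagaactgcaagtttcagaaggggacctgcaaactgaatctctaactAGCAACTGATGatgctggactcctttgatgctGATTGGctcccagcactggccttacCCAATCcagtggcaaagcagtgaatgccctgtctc
H2-Eb2: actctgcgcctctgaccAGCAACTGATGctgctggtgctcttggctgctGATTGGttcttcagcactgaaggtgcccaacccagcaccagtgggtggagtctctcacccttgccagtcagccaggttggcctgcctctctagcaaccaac
The X and Y cores stood 22 bases apart in H2-DMb1 and 21 apart in both H2-Eb1 and H2-Eb2, while H2-Aa held the Y core alone. In H2-Oa, which also rose and is not printed, they stood 86 bases apart. Among 32851 promoter windows of this length in the table, 146 (0.444%) held the X core, 3595 (10.9%) the Y core and 18 (0.0548%) both. Of 12 class II list genes with a window, 4 held the X core (H2-DMb1, H2-Eb1, H2-Eb2 and H2-Oa), 8 the Y core and 4 both. Ctss, Ifi30 and H2-DMa, which also rose, held neither core, and Rfx5, which did not pass, held a Y core. A match of letters describes the window and does not show binding.

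H2-Aa, the alpha chain of the I-A molecule, had 3962 CPM in NOD 1, 2955 in NOD 2, 5645 in BALB/c 1, 3840 in BALB/c 2, 4769 in B6 1 and 3269 in B6 2 in Aire-positive cells. Aire-negative cells had 1219 CPM in NOD 1, 1026 in NOD 2, 819 in BALB/c 1, 708 in BALB/c 2, 752 in B6 1 and 692 in B6 2. No Aire-positive value fell as low as the highest Aire-negative one (log2 difference 2.42 ± 0.21 SE, edgeR adjusted p = 4.9e-05). Its partner H2-Ab1 and the I-E beta chain H2-Eb1 were higher by 2.37 ± 0.24 and 2.26 ± 0.25 on the log2 scale (SE, edgeR adjusted p = 0.000112 and 0.000205).

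H2-Eb2, a beta-chain gene beside H2-Eb1, showed the largest fold among the class II genes. It had 231 CPM in NOD 1, 89.4 in NOD 2, 188 in BALB/c 1, 99 in BALB/c 2, 359 in B6 1 and 270.4 in B6 2 in Aire-positive cells. Aire-negative cells had 18 CPM in NOD 1, 8.94 in NOD 2, 7.47 in BALB/c 1, 5.65 in BALB/c 2, 20.9 in B6 1 and 19.2 in B6 2 (log2 difference 4.17 ± 0.25 SE, edgeR adjusted p = 9.29e-06). Reads of H2-Eb1 and H2-Eb2 may be hard to assign where their sequences are alike, and how the counting handled this is not given in the sources used here.

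Genes that load peptide onto class II molecules moved with the chains. Cd74, the invariant chain, had 16984 CPM in NOD 1, 8644 in NOD 2, 18540 in BALB/c 1, 13217 in BALB/c 2, 15264 in B6 1 and 12298 in B6 2 in Aire-positive cells. Aire-negative cells had 3986 CPM in NOD 1, 3318 in NOD 2, 2295 in BALB/c 1, 2184 in BALB/c 2, 2208 in B6 1 and 2139 in B6 2 (log2 difference 2.59 ± 0.22 SE, edgeR adjusted p = 5.96e-05). H2-DMa and H2-DMb2, subunits of the peptide editor DM, were higher by 1.71 ± 0.24 and 3.45 ± 0.28, and H2-Oa and H2-Ob, subunits of its inhibitor DO, by 3.0 ± 0.24 and 3.02 ± 0.38 (log2, SE, edgeR adjusted p = 0.00057, 2.89e-05, 3.04e-05 and 0.000381). The lysosomal protease gene Ctss and the thiol reductase gene Ifi30 rose by 2.23 ± 0.19 and 1.95 ± 0.32 (log2, SE, edgeR adjusted p = 3.58e-05 and 0.00169). H2-DMb1 rose by 1.22 ± 0.25 (log2, SE, edgeR adjusted p = 0.00458), a call that was lost against Aire-negative cells rich in Ccl21a.

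**Figure D2:**
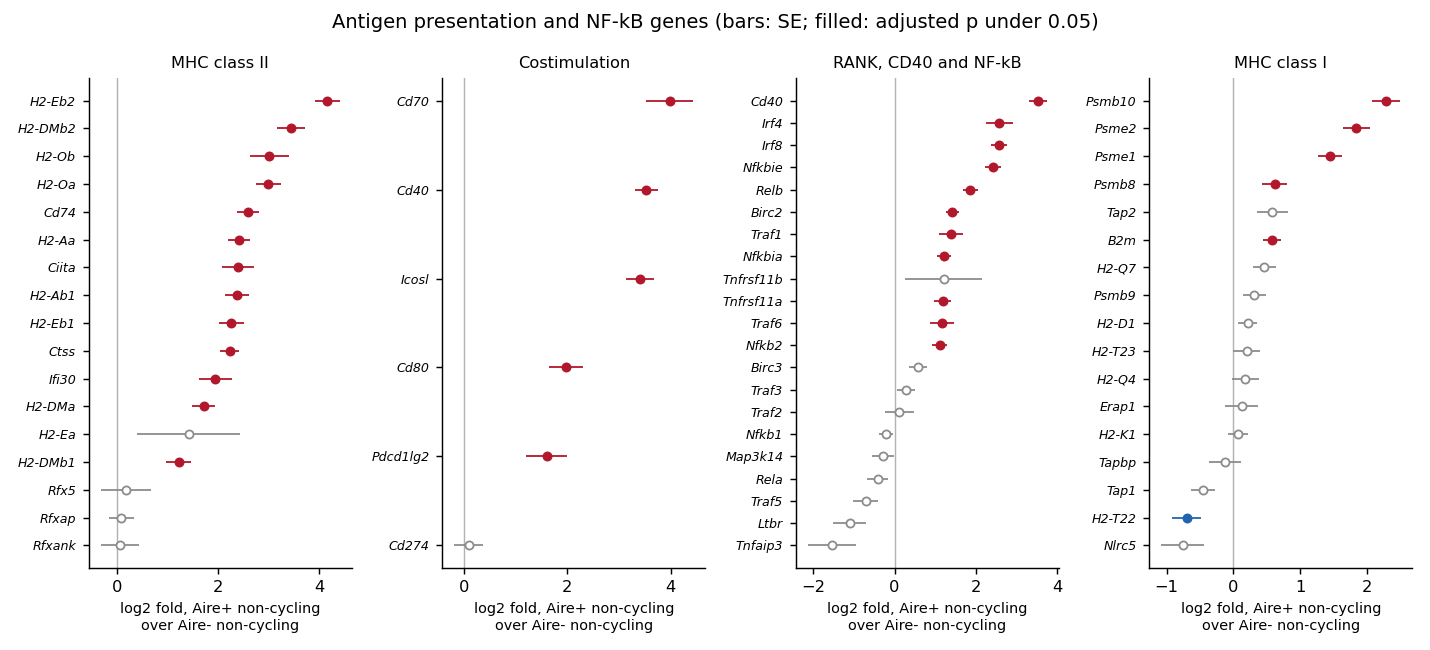
Log2 differences (Aire-positive minus Aire-negative cells, bars ± SE) of the antigen presentation, costimulation and RANK, CD40 and NF-kB genes tested, grouped by list; filled points passed an edgeR adjusted p of 0.05. Of 17 class II genes 13 passed, all to the right of 0, with H2-Eb2 at 4.17; among class I genes 5 passed to the right and H2-T22 to the left at -0.70.

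The class I pathway moved less. Of 17 genes tested, 5 were higher and 1 lower, with a median log2 difference of 0.21. The members that rose were B2m, the class I light chain, and proteasome genes: Psmb10, an immunoproteasome subunit, by 2.29 ± 0.21, Psme2 by 1.84 ± 0.20 and Psme1 by 1.45 ± 0.18, both parts of the proteasome activator PA28 (log2, SE, edgeR adjusted p = 6.69e-05, 0.000164 and 0.000329). The heavy chains H2-K1 and H2-D1 did not pass (log2 differences 0.07 ± 0.14 and 0.21 ± 0.15, edgeR adjusted p = 0.744 and 0.291). The calls on Psmb8 (0.62) and H2-T22 (-0.70) were lost in several settings.

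Genes of costimulation rose as well: 5 of the 6 tested of a list of 10 passed, all higher, with a median log2 difference of 2.69, and Cd40 and Cd80 are among the 5. Cd70, the ligand of CD27, had 111 CPM in NOD 1, 72.4 in NOD 2, 12.7 in BALB/c 1, 72.1 in BALB/c 2, 239 in B6 1 and 37.7 in B6 2 in Aire-positive cells. Aire-negative cells had 6.26 CPM in NOD 1, 5.5 in NOD 2, 3.63 in BALB/c 1, 4.14 in BALB/c 2, 4.5 in B6 1 and 6.54 in B6 2. Each mouse showed the same direction, with B6 1 the highest and BALB/c 1 the lowest Aire-positive value (log2 difference 3.98 ± 0.46 SE, edgeR adjusted p = 0.000269). Icosl, the ligand of ICOS, ranged over 37.7 to 146 CPM in Aire-positive and 8.18 to 10.3 CPM in Aire-negative cells (log2 difference 3.4 ± 0.27 SE, edgeR adjusted p = 2.89e-05). Pdcd1lg2 (PD-L2) rose by 1.61 ± 0.40 (log2, SE, edgeR adjusted p = 0.0115), a call that did not hold without NOD 1, while Cd274 (PD-L1) had a log2 difference of 0.09 ± 0.28 (edgeR adjusted p = 0.833).

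In the RANK, CD40 and NF-kB list, 11 of 21 genes were higher and none lower, with a median of 1.16. Tnfrsf11a, which encodes RANK, had 227 CPM in NOD 1, 413 in NOD 2, 300.4 in BALB/c 1, 362 in BALB/c 2, 340.2 in B6 1 and 641 in B6 2 in Aire-positive cells. Aire-negative cells had 213 CPM in NOD 1, 206 in NOD 2, 163 in BALB/c 1, 148 in BALB/c 2, 174 in B6 1 and 203 in B6 2. All 6 mice were higher, with NOD 1 showing the smallest gap (log2 difference 1.18 ± 0.20 SE, edgeR adjusted p = 0.00181). Relb and Nfkb2, the subunits of the alternative NF-kB pathway that mTEC need, rose by 1.87 ± 0.18 and 1.11 ± 0.18 (log2, SE, edgeR adjusted p = 7.47e-05 and 0.00144). The inhibitor gene Nfkbie rose by 2.42 ± 0.20 and the interferon regulatory factors Irf4 and Irf8 by 2.58 ± 0.34 and 2.57 ± 0.19 (log2, SE, edgeR adjusted p = 3.58e-05, 0.00049 and 2.27e-05). Outside this list, Laptm5 and Coro1a, which are leukocyte genes, were higher too (1.89 ± 0.29 and 3.16 ± 0.42, log2, SE, edgeR adjusted p = 0.00105 and 0.000476). The summed level of 15 dendritic and myeloid markers ranged over 456 to 1809 CPM in Aire-positive and 521 to 1429 CPM in Aire-negative cells, with 2 of the 15 at 0 in every Aire-positive sum. Of these 15 genes 5 were tested, and Plac8 was the 1 that was lower. Per cell, at an equal depth of 5000 UMIs, a mean of 1.55 ± 0.340 of the 15 genes was found in Aire-positive and 1.02 ± 0.215 in Aire-negative cells (SD, n = 6 mice), higher in 6 of 6 mice. Their part in these results was not tested.

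A second comparison, chosen after the data were seen, kept only Aire-negative cells with at least 10 UMIs of Ccl21a, the chemokine of immature mTEC. Against these cells, called Ccl21a-rich below, 14 class II genes were tested, of which 11 were higher and none lower (median log2 difference 1.36), and 3 of 4 costimulatory genes were higher. The RANK, CD40 and NF-kB genes split into 9 higher and 3 lower of 19 (median 0.28), and the calls on Tnfrsf11a, B2m, Foxn1 and Cxcl10 were lost. Over all genes of this fit, 1052 of 5921 were higher and 1148 lower, and list counts are read against these. Of the 3086 genes called in the full comparison, 2083 were tested here, 1399 kept call and direction, and 76 changed sign.

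Shallow comparison cells were also left out. With Aire-negative cells of at least 14880 UMIs (the lower quartile of the Aire-positive cells) as the comparison, 13 of 16 class II genes and 12 of 21 RANK, CD40 and NF-kB genes were higher and none lower, and 2145 of the 3086 calls were kept, 4 with the other sign among the 2974 tested. Over all genes of that fit, 1029 of 9341 were higher and 1230 lower.

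Among genes coding for chemokines, 4 of 12 tested were higher and none lower. Ccl19, which draws CCR7-bearing thymocytes into the medulla, had 310.2 CPM in NOD 1, 166 in NOD 2, 93.1 in BALB/c 1, 96.1 in BALB/c 2, 523 in B6 1 and 145 in B6 2 in Aire-positive cells. Aire-negative cells had 50.8 CPM in NOD 1, 51.6 in NOD 2, 6.41 in BALB/c 1, 10.9 in BALB/c 2, 10.2 in B6 1 and 20.4 in B6 2. The lowest Aire-positive value lay above the highest Aire-negative one (log2 difference 3.44 ± 0.49 SE, edgeR adjusted p = 0.00131). The CXCR3 ligands Cxcl9, Cxcl10 and Cxcl11 rose by 3.06 ± 0.68, 1.72 ± 0.40 and 2.07 ± 0.27 (log2, SE, edgeR adjusted p = 0.013, 0.0115 and 0.000446), with Cxcl11 at 135 to 1547 CPM in Aire-positive cells and both BALB/c mice the highest.

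Markers linked to cortical epithelium were also present: Foxn1, the master factor of thymic epithelium, Prss16, a thymus-specific serine protease, and Tbata rose by 1.58 ± 0.29, 1.92 ± 0.34 and 3.04 ± 0.49 (log2, SE, edgeR adjusted p = 0.0023, 0.00219 and 0.0026), 3 of 7 tested with none lower. Of 25 genes coding for proteins known to partner Aire, 1 rose (Sirt1, a deacetylase that acts on Aire, by 1.76 ± 0.37, edgeR adjusted p = 0.00644) and 3 fell (Atf7ip, Kmt2a and Ep300), against 13.9% higher and 16.9% lower among all genes. Of 17 apoptosis genes 3 rose and 0 fell (median log2 difference 0.30), near the share of 13.9% higher among all genes. The 3 were Bax, Fas and Tnfrsf10b, which promote cell death, by 1.27 ± 0.26, 1.93 ± 0.32 and 1.73 ± 0.37 (log2, SE, edgeR adjusted p = 0.00432, 0.00153 and 0.0056).

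The limit on dividing cells applied to both classes and let through cells with up to 3 of the 9 genes. Of 11 cell cycle genes outside the rule that were tested, 4 were higher and 1 lower, with a median log2 difference of 0.49. Dut and Tyms, enzymes of thymidylate synthesis, rose by 1.75 ± 0.23 and 1.24 ± 0.36, and Stmn1 (stathmin) and Tubb5, a tubulin, by 1.95 ± 0.26 and 1.12 ± 0.17 (log2, SE, edgeR adjusted p = 0.000432, 0.0242, 0.000526 and 0.000953). Cdkn1a, which encodes the cell cycle inhibitor p21, fell by 2.42 ± 0.48 (log2, SE, edgeR adjusted p = 0.00643). The calls on Tubb5 and Cdkn1a were lost against Ccl21a-rich cells, and that on Tyms in several settings, among them without NOD 1 and without either BALB/c mouse.

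The rule for named genes, the 10 largest folds of genes with at least 20 CPM and the same direction in every mouse, gave, among the genes that rose, H2-Eb2 and Cd70 (above) and 7 others described here. Utf1, a chromatin factor of embryonic stem cells, had 581 CPM in NOD 1, 507 in NOD 2, 379 in BALB/c 1, 455 in BALB/c 2, 699 in B6 1 and 258 in B6 2 in Aire-positive cells. Aire-negative cells had 22.7 CPM in NOD 1, 30.3 in NOD 2, 34.4 in BALB/c 1, 26.9 in BALB/c 2, 47.1 in B6 1 and 27.8 in B6 2, with no overlap (log2 difference 4.09 ± 0.24 SE, edgeR adjusted p = 9.29e-06). Fgf21, a liver hormone, was higher in each mouse but uneven, with 1197 CPM in NOD 1, 166 in NOD 2, 935 in BALB/c 1, 575 in BALB/c 2, 1959 in B6 1 and 207 in B6 2 in Aire-positive cells. Aire-negative cells had 25 CPM in NOD 1, 8.94 in NOD 2, 46.1 in BALB/c 1, 50.6 in BALB/c 2, 46.2 in B6 1 and 147 in B6 2 (log2 difference 4.28 ± 0.76 SE, edgeR adjusted p = 0.00539). The other 5 were Wnt10b, a Wnt ligand (4.61 ± 0.37), the hormone gene Adm2 (4.59 ± 0.34), Vmo1 (4.39 ± 0.76), the heme-binding protein gene Hebp1 (4.16 ± 0.30) and the adipose serpin Serpina12 (4.06 ± 0.72), as log2 differences with SE (edgeR adjusted p = 2.89e-05, 2.33e-05, 0.00471, 1.75e-05 and 0.00282).

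All 10 of the largest falls were genes with no UMI in the assigned Aire-positive cells. They passed the filter on low counts through the Aire-negative cells alone, so their direction is a description. Tmem212 was at least 56.4-fold lower in Aire-positive than in Aire-negative cells, against a limit of 3 UMIs over the group, and the ciliary genes Sntn, Ccdc170 and Dnah3 at least 31.6-, 18.3- and 17.0-fold lower. The epidermal genes Ivl (involucrin), Il1f6 (an interleukin-36) and Sdr16c6 were at least 31.8-, 37.9- and 38.1-fold lower. The others were Cxcl17 (28.0), AU040972 (24.4) and BC051019 (23.3), again as lower limits of the fold. The unassigned Aire-positive cells did hold 12 UMIs of Sdr16c6, 3 each of Ivl, AU040972 and BC051019, and 1 each of Tmem212 and Cxcl17.

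Most interferon-stimulated genes tested were lower. Of 32 tested (of 35), 20 were lower and 1 higher, with a median log2 difference of -1.73, against 16.9% lower among all genes. Their summed level in Aire-positive cells was 3158 and 2614 CPM in NOD, 1661 and 1832 in BALB/c and 1802 and 3012 in B6. In Aire-negative cells it was 6053 and 5894, 4719 and 4531, and 1934 and 2217 CPM. The sum was thus lower in NOD and BALB/c, close in B6 1 and higher in B6 2. Ifit3, an antiviral protein induced by type I interferon, had 3.98 CPM in NOD 1, 4.26 in NOD 2, 2.12 in BALB/c 1, 2.83 in BALB/c 2, 0 in B6 1 and 0 in B6 2 in Aire-positive cells. Aire-negative cells had 214 CPM in NOD 1, 206 in NOD 2, 83.9 in BALB/c 1, 62.2 in BALB/c 2, 16 in B6 1 and 13.9 in B6 2, so every mouse was lower, with the steepest gap in NOD (log2 difference -4.98 ± 0.36 SE, edgeR adjusted p = 1.75e-05).

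Isg15, a ubiquitin-like modifier, had 3.98 CPM in NOD 1, 25.5 in NOD 2, 55 in BALB/c 1, 25.4 in BALB/c 2, 69.3 in B6 1 and 56.6 in B6 2 in Aire-positive cells. Aire-negative cells had 683 CPM in NOD 1, 713 in NOD 2, 444 in BALB/c 1, 488 in BALB/c 2, 117 in B6 1 and 152 in B6 2. All 6 were lower, and the Aire-negative level was highest in NOD and lowest in B6 (log2 difference -3.16 ± 0.72 SE, edgeR adjusted p = 0.0139). Stat2, which carries the signal of type I interferon, fell by 1.80 ± 0.28 and Rsad2 (viperin) by 3.72 ± 0.72 (log2, SE, edgeR adjusted p = 0.00105 and 0.00414). The exception within the list was Cxcl10. Cxcl9 and Cxcl11, which also rose, were counted with the chemokines. Against the Ccl21a-rich cells 20 of 27 were still lower and 1 higher, and against the Aire-negative cells of at least 14880 UMIs 18 of 31 lower and 1 higher. Over all genes, 1148 of 5921 and 1230 of 9341 were lower in the same order.

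Immediate-early and stress genes, which respond to tissue dissociation, were lower beside them: 5 of 11 fell and none rose (median -1.20), with Fos at 75.6 to 534 CPM in Aire-positive and 821 to 1585 CPM in Aire-negative cells (log2 difference -2.16 ± 0.33 SE, edgeR adjusted p = 0.00113). The summed level of the list ranged over 1663 to 5011 CPM in Aire-positive and 5104 to 7745 CPM in Aire-negative cells. The part of this difference in the interferon result was not tested.

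Tuft, ciliated and keratinocyte marker genes were lower. Of 14 tuft genes 13 were lower and none higher (median -2.83), of 8 ciliated genes 8 were lower (median -3.48) and of 11 keratinocyte genes 7 were lower (median -4.03). Other mimetic lists did not share this: 3 of 4 secretory genes were lower, but 0 of 9 microfold genes were lower and 1 higher (median 0.33), and the 8 enterohepatic and 5 neuroendocrine genes had as many higher as lower (1 and 1, and 2 and 2). Some genes that fell passed the low-count filter only through the Aire-negative sums, so they could hardly be called higher. Ivl had 0 UMIs in each assigned Aire-positive sum. The 10 ciliated markers summed to 16.9 to 91.5 CPM in Aire-positive and 258 to 672 CPM in Aire-negative cells. The counts of lower genes in these lists are a description. Pou2f3, the factor that specifies tuft cells, had 7.95 CPM in NOD 1, 12.8 in NOD 2, 21.2 in BALB/c 1, 53.7 in BALB/c 2, 69.3 in B6 1 and 75.4 in B6 2 in Aire-positive cells. Aire-negative cells had 46.9 CPM in NOD 1, 55 in NOD 2, 141 in BALB/c 1, 136 in BALB/c 2, 227 in B6 1 and 172 in B6 2 (log2 difference -1.63 ± 0.24 SE, edgeR adjusted p = 0.000748). Both B6 mice had the highest Aire-positive values, still under their own Aire-negative ones.

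Gnat3, the taste G protein of tuft cells, fell by 5.57 ± 0.82, Krt10, the keratin of differentiating epidermis, by 3.47 ± 0.47, and Foxj1, the factor of motile cilia, by 2.18 ± 0.36 (log2, SE, edgeR adjusted p = 0.00241, 0.000896 and 0.0014). When cells with 1 Aire UMI were counted as Aire-positive, 6 of 14 tuft, 3 of 8 ciliated and 2 of 12 keratinocyte genes were lower and none higher. Over all genes of that fit, 992 of 10718 were lower and 997 higher. Against Ccl21a-rich cells most of these genes were not tested, 1 of 2 tuft and 1 of 3 keratinocyte genes were higher, and none was lower.

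Not all lineage factors followed. Of 12 mimetic lineage factors tested, 6 fell (Pou2f3, Foxj1, Myog, Klf4, Elf3 and Ehf), while Insm1 rose. Insm1, the neuroendocrine factor, had 278 CPM in NOD 1, 106 in NOD 2, 118 in BALB/c 1, 400.1 in BALB/c 2, 283 in B6 1 and 296 in B6 2 in Aire-positive cells. Aire-negative cells had 1.56 CPM in NOD 1, 8.26 in NOD 2, 27.1 in BALB/c 1, 10.8 in BALB/c 2, 76.9 in B6 1 and 96.5 in B6 2 (log2 difference 3.49 ± 0.77 SE, edgeR adjusted p = 0.0134). Every mouse was higher, and NOD 1 had the lowest Aire-negative level.

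Cdx1, an intestinal homeobox factor, ranged over 217 to 523 CPM in Aire-positive and 8.6 to 67 CPM in Aire-negative cells (log2 difference 3.66 ± 0.42 SE, edgeR adjusted p = 0.000422). Syt1, a calcium sensor of secretory vesicles, rose by 1.57 ± 0.22 (log2, SE, edgeR adjusted p = 0.000655), while Stxbp5l and Chga of the same neuroendocrine list fell, calls that were lost in 9 of 14 and 11 of 17 settings and changed sign when cells with 1 Aire UMI were counted as Aire-positive. Of 9 microfold genes 1 rose, Marcksl1 (1.17 ± 0.18, edgeR adjusted p = 0.000987).

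**Figure D3:**
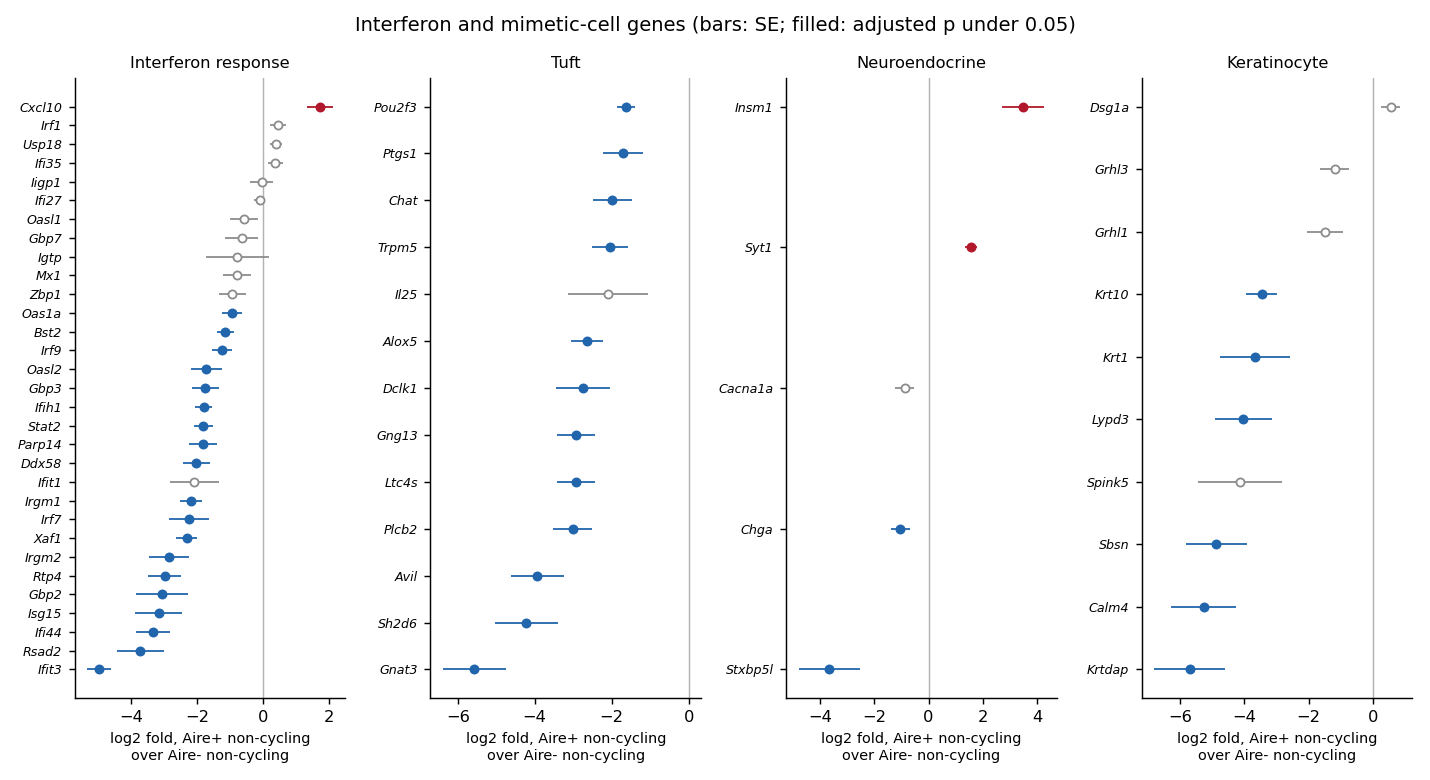
Log2 differences (Aire-positive minus Aire-negative cells, bars ± SE) of interferon-stimulated, tuft, neuroendocrine and keratinocyte genes with at least 1 UMI in the assigned Aire-positive cells; filled points passed an edgeR adjusted p of 0.05. A few listed genes are not drawn. Most points lie left of 0, led by Krtdap at -5.70 and Gnat3 at -5.57, and Insm1 (3.49), Syt1 (1.57) and Cxcl10 (1.72) passed to the right.

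Tissue-restricted antigens behaved differently from the class II genes when read cell by cell. Of 68 such genes in the matrix, chosen from the literature of Aire targets and autoimmunity, 18 had no UMI in any of the 112 cells and only 15 passed the filter on low counts. In that test 2 rose, Muc1 by 2.23 ± 0.34 and Nol4 by 1.21 ± 0.21 (log2, SE, edgeR adjusted p = 0.000987 and 0.00208), and 2 fell, Ptprn2 by 3.01 ± 0.42 and Chga by 1.04 ± 0.35 (edgeR adjusted p = 0.000608 and 0.046). The median was -0.33.

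Single cells carried many of these antigens. Sst, the hormone somatostatin, had 187 UMIs, of which 186 came from 1 cell. Gcg (glucagon) had 161 UMIs in 8 cells, 138 of them from 1 cell. Klk1, a salivary kallikrein, had 533 UMIs in 8 cells, 463 of them from 1 cell of B6 2, and Fabp9, a testis fatty acid binding protein, 236 UMIs in 7 cells with 147 from 1.

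Other antigens were spread more widely. Csn2, the milk protein beta-casein, had 629 UMIs in 39 cells with at most 171 from 1. Pcp4, a Purkinje cell protein, had 638 UMIs in 32 of 112 Aire-positive cells (28.6%) with at most 73 from 1, but 618 of those UMIs lay in cells assigned to no mouse, 18 in BALB/c 2 and 2 in NOD 1. The share of 28.6% stood against 34 of 1510 Aire-negative cells (2.25%) and 2.26% of Ptprc-positive cells; at 5000 UMIs a cell the shares were 23.1%, 1.27% and 2.86%. Muc1 was found in 72 cells (64.3%), against 16.6% of Aire-negative cells, and in 43.3%, against 9.69%, at 5000 UMIs.

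For the 29 antigens with at least 10 UMIs, the richest cell held a median of 33.9% of a gene's UMIs, and in 5 genes it held at least 50%. The median antigen was found in 12 of the 112 cells. For the 17 class II genes the richest cell held a median of 4.86%, the median gene was found in 93 cells, and in none did 1 cell hold 50%. These values also follow from level, since a gene with few UMIs cannot reach many cells.

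**Figure D4:**
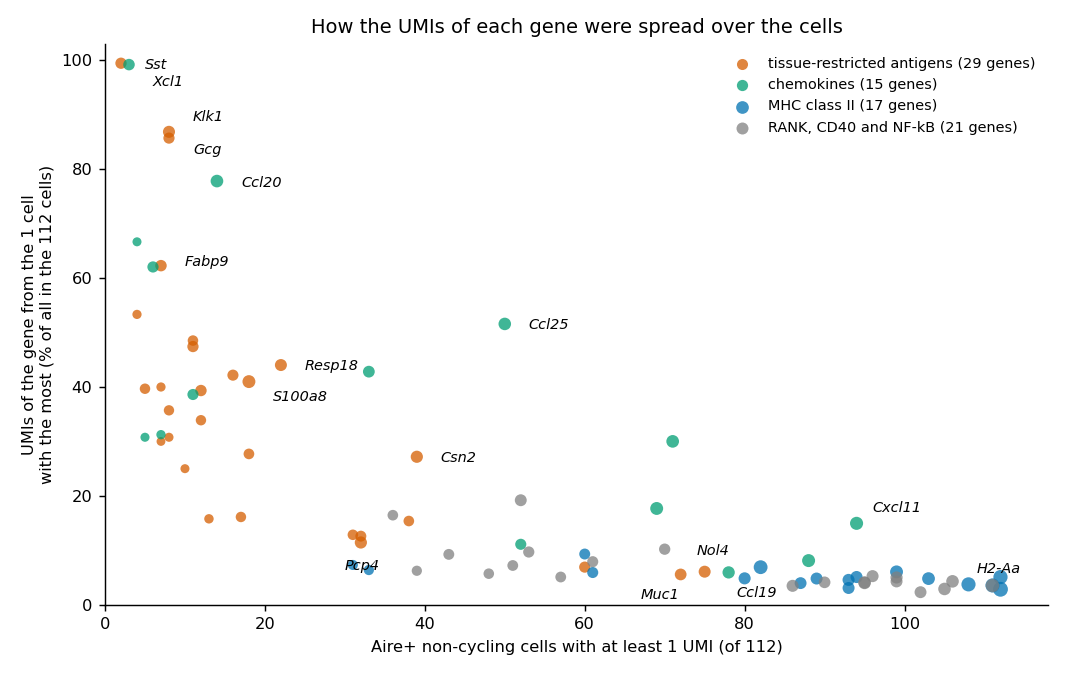
For each gene with at least 10 UMIs in the 112 Aire-positive cells, the horizontal axis gives the number of cells with a UMI and the vertical axis the share of the gene's UMIs held by its richest cell (%); larger points mark genes with more UMIs. Antigens and some chemokines (Sst, Xcl1, Klk1, Gcg, Ccl20) lie at the upper left, with up to 99.5% of UMIs in 1 cell, and the class II genes at the lower right.

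Since a deep cell shows more genes, each cell was thinned to 5000 UMIs, which left 104 Aire-positive and 1259 Aire-negative cells (8 and 251 were too shallow). At that depth 72.1% of Aire-positive cells held at least 2 of the antigen genes, against 36.6% of Aire-negative cells (92.9% and 62.6% before thinning) and 11.4% of Ptprc-positive cells. By mouse the shares were 66.7% and 71.4% in NOD, 73.3% and 50.0% in BALB/c and 100% and 75% in B6 for Aire-positive cells, against 36.4% and 28.9% in NOD, 35.6% and 28.2% in BALB/c and 49.3% and 54.0% in B6 for Aire-negative cells. The mean number of antigen genes per cell was 2.99 ± 1.09 in Aire-positive and 1.64 ± 0.606 in Aire-negative cells (SD, n = 6 mice) and was higher in 6 of 6 mice.

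In the same thinned cells at least 2 chemokine genes were found in 84.6% of Aire-positive against 40.2% of Aire-negative cells, and at least 2 neuroendocrine genes in 62.5% against 17.6% (93.8% against 57.6% and 81.3% against 31.4% before thinning), both higher in 6 of 6 mice. The neuroendocrine share did not span the list. Of its 12 genes, 4 had no UMI in any assigned Aire-positive sum, Chgb among them, while Insm1 had 25 to 283 UMIs per mouse. Which genes carried that share was not counted. At least 2 microfold genes were found in 85.6% of Aire-positive against 63.9% of Aire-negative cells (93.8% and 80.4% before thinning), again higher in 6 of 6 mice. Before thinning, the median gene of this list was found in 18.5 of the 112 Aire-positive cells. In 3 of its 10 genes 1 cell held at least 50% of the UMIs. Anxa5 and Marcksl1 of the list had 95 to 763 and 85 to 359 UMIs per mouse in Aire-positive cells. The genes behind this microfold share were not counted either. At least 2 dendritic and myeloid genes were found in 51.0% against 26.8% (80.4% and 41.7% before thinning), higher in 6 of 6 mice, and in 78.1% of Ptprc-positive cells. Tuft genes went the other way, with 18.3% of Aire-positive against 47.0% of Aire-negative cells (56.3% and 60.7% before thinning). B6 2 was the exception, with 50.0% against 45.3%. These traits were not particular to the non-cycling cells. Of 67 cycling Aire-positive cells at the same depth, 85.1% held at least 2 chemokine, 68.7% neuroendocrine and 91.0% microfold genes. For antigen, dendritic and myeloid, and tuft genes their shares were 59.7%, 34.3% and 5.97%. Of the 104 thinned Aire-positive cells, 80 held at least 2 genes of 2 or more of the 10 mimetic lists, 20 of 1 list and 4 of none (3.85%). Among 1259 thinned Aire-negative cells, 99 (7.86%) held none. How many of those held 2 or more lists was not counted. The microfold list, met by most cells of both classes, is 1 of the 10.

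An unassigned cell of 45002 UMIs with 22 Aire UMIs held the most UMIs of 9 listed genes, among them Gcg, Iapp, Csn2, Xcl1 and the globin gene Hba-a1. Another unassigned cell, of 59544 UMIs with 4 Aire UMIs and 21219 hashtag UMIs, led 10 genes, including Reg3g, Krtdap, Flg and Gp2. A cell of B6 2 with 2 Aire UMIs led the tuft genes Dclk1, Chat, Il25 and Sh2d6, and also Resp18. Whether such droplets held more than 1 cell was not tested.

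The total number of genes per cell did not rise. At 5000 UMIs the median cell of a mouse showed 174.7 ± 116.9 fewer genes in Aire-positive than in Aire-negative cells (SD, n = 6 mice), lower in 5 of 6 mice, with an exact two-sided sign-flip permutation test giving p = 0.0625 (smallest possible p 0.03125). Before thinning the pooled medians were 6084 and 4208.5 genes. Against the cycling cells the difference was -63.9 genes over 5 mice (exact permutation p = 0.125, smallest possible 0.0625).

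Within the 112 cells the level of Aire went with other genes. Ranked by Aire per UMI into groups of 38, 37 and 37 cells (median Aire UMIs 3, 10 and 25; median total UMIs 35927, 33752 and 24895), the low, middle and high groups had 97.3, 156 and 265 CPM of Cd40 and 86.7, 172 and 197 CPM of Ciita. Cd80 had 53.5, 106 and 117 CPM, H2-Aa 3207, 4172 and 4939 CPM and Insm1 119, 238 and 406 CPM in the same order. These are sums over cells from all mice, with no replicate and no test.

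Some genes of immature and mimetic cells ran against Aire in the same ranking, while others changed little or rose. The low, middle and high groups had 724, 199 and 56.2 CPM of the basal keratin Krt5, 1145, 203 and 127 CPM of Ccl21a, and 167, 68.8 and 10.3 CPM of the tuft gene Dclk1. Gp2, a receptor of microfold cells, had 342, 30.8 and 5.73 CPM. Single cells carried much of this: 343 of the 492 UMIs of Gp2 came from 1 unassigned cell with 4 Aire UMIs, and 95 of the 307 of Dclk1 from 1 cell of B6 2 with 2 Aire UMIs. Mice were uneven too. Krt5, a gene of the epithelial rule, had 612 UMIs in NOD 2, where Aire had a median of 5 UMIs, and 3 to 164 in each other mouse. Ccl21a had 437 UMIs in NOD 2, 481 and 441 in BALB/c and 19 to 150 in the other mice. The part of the mice in this ranking was not tested. RANK differed little, at 369, 311 and 350 CPM of Tnfrsf11a. Other mimetic genes did not fall in this way. The tuft gene Trpm5 had 21.9, 23.5 and 37.8 CPM, from 8, 6 and 2 cells. Krt10 had 24.9, 27.2 and 24.1 CPM and Foxj1 12.8, 9.96 and 9.17 CPM, and Insm1 rose, as given above.

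The cycling Aire-positive cells were set against the non-cycling ones in a smaller fit, with fewer mice, cells and genes, so its counts are not compared with those above. In the 5 mice with at least 5 cells of both kinds (B6 2 had 2 cycling cells and is left out), 97 of 4585 genes (2.12%) were higher in the non-cycling cells and 166 (3.62%) lower. The rule separated these classes by cell cycle genes, so the 17 of 21 cell cycle genes outside the rule that were lower (Ccna2, Cdc20, Tpx2, Bub1 and Hmgb2 among them), like Cenpa, are a description. Ccna2 had 1 UMI in the non-cycling and 195 in the cycling cells of these mice, a ratio of 0.00522 (95% counting interval 0.000132 to 0.0294).

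Antigen presentation did not separate them at this depth. None of 14 class II, 15 class I, 6 costimulation or 10 interferon genes passed, with median log2 differences of 0.35, 0.12, 0.22 and 0.36 against 0.04 for all genes. In the same comparison 2 of 10 mature mTEC genes were higher. Cd52, a small glycoprotein, had 326 CPM in NOD 1, 42.6 in NOD 2, 660 in BALB/c 1, 123 in BALB/c 2 and 1619 in B6 1 among non-cycling cells, against 19.9 and 25.1, 61.3 and 29.3, and 179 CPM in the same mice among cycling cells. Each mouse was higher, but the values spread widely over mice (log2 difference 2.97 ± 0.39 SE, edgeR adjusted p = 0.0027). Ubd rose by 1.32 ± 0.22 (log2, SE, edgeR adjusted p = 0.00789).

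Chemokine genes were higher in 3 of 6 tested. Ccl25, which attracts CCR9-bearing thymocytes, had 179 and 12.8 CPM in NOD, 1716 and 82.0 in BALB/c and 422 in B6 1 among non-cycling cells, against 13.3 and 2.79, 119 and 30.9, and 5.78 CPM among cycling cells (log2 difference 3.42 ± 0.52 SE, edgeR adjusted p = 0.0073). Of its 1041 UMIs in all 112 cells, 537 came from 1 cell of BALB/c 1. Ccl21a had 207 and 1861 CPM in NOD, 1018 and 623 in BALB/c and 120 in B6 1, against 33.2 and 86.6, 211 and 94.3, and 63.6 CPM among cycling cells (log2 difference 2.84 ± 0.40 SE, edgeR adjusted p = 0.00486).

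The synuclein gene Sncg and the mesothelin gene Msln completed the 5 rises with the largest fold among genes of at least 20 CPM that were higher in all 5 mice, by 3.06 ± 0.38 and 2.68 ± 0.33 (log2, SE, edgeR adjusted p = 0.00107 and 0.000907). Csn2 rose by 2.30 ± 0.40 and Reg3g by 3.36 ± 0.59 (log2, SE, edgeR adjusted p = 0.00846 and 0.0133). The calls on Ccl25, Ccl21a, Cd52, Sncg, Csn2 and Reg3g did not hold without mouse as a block, and 8 of the 22 genes named in this comparison held in every setting.

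Between strains few genes passed within the Aire-positive cells, which gave sums of 7 to 26 cells a mouse. Of 5064 genes tested, 3 were higher (0.0592%) and 4 lower (0.079%) in NOD than in BALB/c, 5 higher (0.0987%) and 11 lower (0.217%) in NOD than in B6, and 8 higher (0.158%) and 17 lower (0.336%) in BALB/c than in B6. The 3 contrasts share samples.

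H2-Ea, the alpha chain of the I-E molecule, is known to carry a promoter deletion in B6 and NOD mice and is annotated as a polymorphic pseudogene (chromosome 17, 34341959 to 34344645, minus strand, mm10). In Aire-positive cells it had 7.95 CPM in NOD 1, 4.26 in NOD 2, 5372 in BALB/c 1, 2994 in BALB/c 2, 0 in B6 1 and 37.7 in B6 2. In Aire-negative cells it had 19.6 CPM in NOD 1, 11 in NOD 2, 462 in BALB/c 1, 440.0 in BALB/c 2, 35.6 in B6 1 and 14.7 in B6 2. The 2 BALB/c mice stood far above the other 4 in both classes, and the classes of mice did not overlap (log2 difference 7.91 ± 0.95 SE, edgeR adjusted p = 0.0208 for BALB/c over B6). NOD mice had 3 UMIs in all, a ratio of 0.00156 to BALB/c (95% counting interval 0.000322 to 0.00457).

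Cd81, a tetraspanin, was the gene named for BALB/c against B6 that held in every setting. It had 131 CPM in NOD 1, 204 in NOD 2, 827 in BALB/c 1, 687 in BALB/c 2, 6.3 in B6 1 and 25.1 in B6 2 in Aire-positive cells. Aire-negative cells had 178 CPM in NOD 1, 166 in NOD 2, 168 in BALB/c 1, 125 in BALB/c 2, 19.6 in B6 1 and 41.7 in B6 2. Among Aire-positive cells BALB/c was highest and B6 lowest, with no overlap (log2 difference 5.68 ± 0.60 SE, edgeR adjusted p = 0.0128 for BALB/c over B6). Wfdc17, a secreted protease inhibitor-like protein, was higher in BALB/c than in B6 Aire-positive cells (log2 difference 5.03 ± 0.64 SE, edgeR adjusted p = 0.0193) and had 23.9 CPM in NOD 1, 63.9 in NOD 2, 432 in BALB/c 1, 351 in BALB/c 2, 6.3 in B6 1 and 18.9 in B6 2.

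Several differences were of presence and absence. Skint4 and Skint3, of a family of thymic and epidermal immunoglobulin-like genes, had 0 UMIs in the Aire-positive cells of NOD and BALB/c, against 227 and 440 CPM (Skint4) and 189 and 277 CPM (Skint3) in B6 1 and B6 2. They were at least 131-fold (Skint4) and 91.6-fold (Skint3) lower in BALB/c and at least 54.1- and 37.7-fold lower in NOD. Members of that family are alike in sequence, so their counts are uncertain. Slit2, an axon guidance ligand, was at least 48.3-fold lower in BALB/c than in B6, and Ifi211, an interferon-inducible gene, at least 28.6-fold lower in NOD than in B6. Ndufa12-ps and Ccnb1ip1 went the other way, with 0 UMIs in B6 and at least 13.8- and 20.4-fold higher levels in BALB/c. Rps24-ps3, a pseudogene of a ribosomal protein gene, had 784 and 583 CPM in NOD, 2.12 and 7.07 in BALB/c and 0 in B6; a pseudogene can take up or lose reads of its parent gene.

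Among genes with a known function in the list, Iigp1, an interferon-induced GTPase, had 613 CPM in NOD 1, 379 in NOD 2, 88.9 in BALB/c 1, 58 in BALB/c 2, 37.8 in B6 1 and 44 in B6 2 in Aire-positive cells. Aire-negative cells had 339 CPM in NOD 1, 329.6 in NOD 2, 221 in BALB/c 1, 207 in BALB/c 2, 27 in B6 1 and 31.1 in B6 2. NOD was highest in both classes (log2 difference 3.7 ± 0.50 SE, edgeR adjusted p = 0.0295 for NOD over B6). Hamp, the iron hormone hepcidin, had 3.98 CPM in NOD 1, 0 in NOD 2, 501 in BALB/c 1, 342 in BALB/c 2, 1606 in B6 1 and 484 in B6 2, a ratio of 0.00197 of NOD to B6 (95% counting interval 4.97e-05 to 0.011). Scg5, a chaperone of prohormone convertase, was lower in NOD than in BALB/c, with 27.8 CPM in NOD 1, 29.8 in NOD 2, 201 in BALB/c 1, 254 in BALB/c 2, 189 in B6 1 and 163 in B6 2 (log2 difference -2.96 ± 0.39 SE, edgeR adjusted p = 0.0475). The call on Scg5 was lost in 9 of 15 settings. The NOD calls against B6 on these genes were all lost when hashtags were called by HTODemux and without either NOD mouse.

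Resp18, a neuroendocrine secretory protein and a listed tissue antigen, had 3.98 CPM in NOD 1, 0 in NOD 2, 12.7 in BALB/c 1, 5.65 in BALB/c 2, 743 in B6 1 and 1710 in B6 2 in Aire-positive cells. Aire-negative cells had 3.13 CPM in NOD 1, 59.9 in NOD 2, 34.4 in BALB/c 1, 21.6 in BALB/c 2, 192 in B6 1 and 280.0 in B6 2. It was lower in BALB/c than in B6 (log2 difference -6.93 ± 0.72 SE, edgeR adjusted p = 0.0128), and 214 of its 486 UMIs in the 112 cells came from 1 cell of B6 2, so 1 cell carries much of the B6 value.

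**Figure D5:**
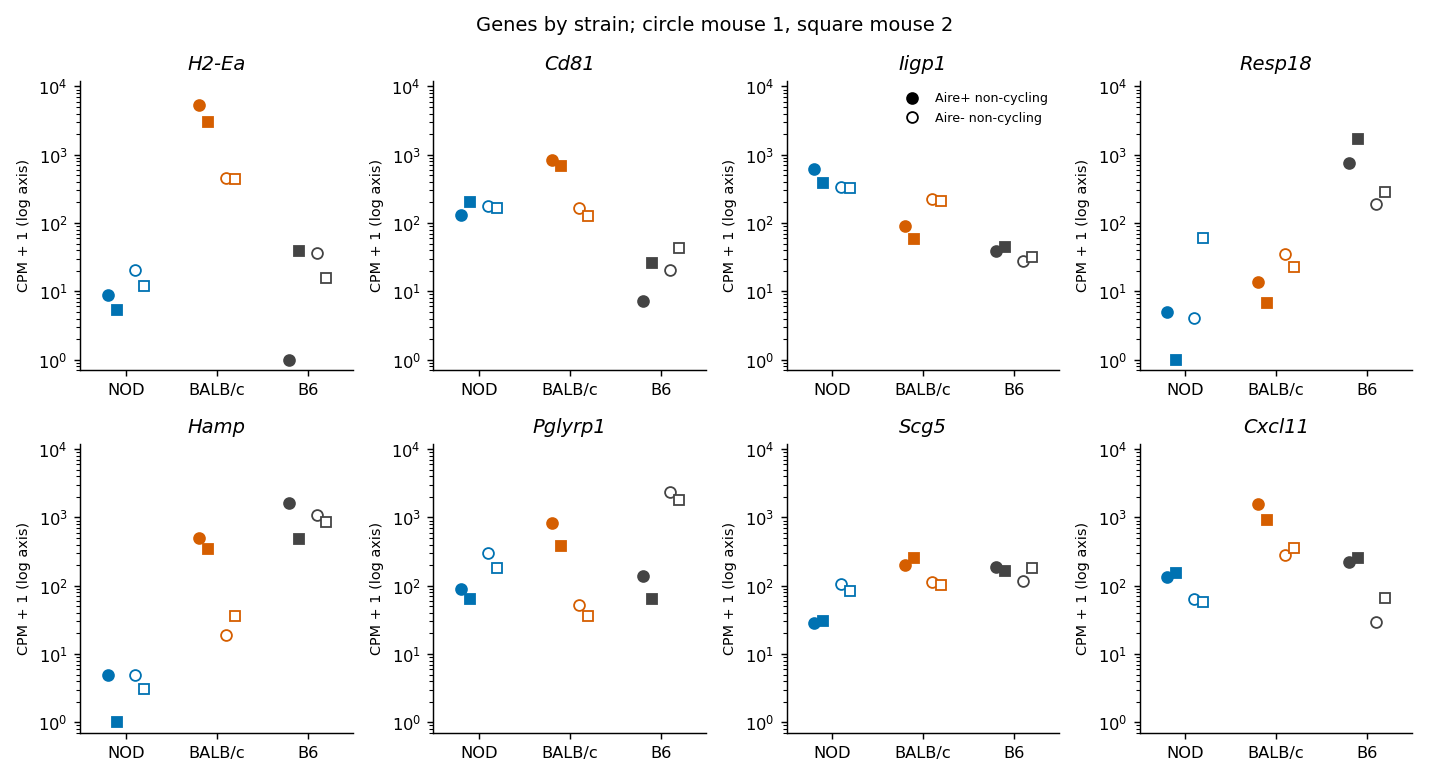
Levels (CPM + 1, log axis) of 8 genes by strain, with filled symbols for Aire-positive non-cycling and open symbols for Aire-negative cells, a circle for mouse 1 and a square for mouse 2. H2-Ea is highest in BALB/c, Iigp1 in NOD and Resp18 in B6. Cd81 is highest in BALB/c among Aire-positive cells, while NOD and BALB/c overlap among Aire-negative cells. Pglyrp1 is lower in Aire-positive than in Aire-negative cells of B6 and NOD but higher in those of BALB/c.

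Whether a strain difference was unlike in the 2 classes was tested as an interaction of class and strain over 12639 genes. A positive interaction means that the log2 difference between strains, with its sign, was higher in Aire-positive than in Aire-negative cells. For BALB/c minus B6, 23 genes (0.182%) passed with a positive and 10 (0.0791%) with a negative interaction. For NOD minus BALB/c, 0 genes passed with a positive and 1 (0.00791%) with a negative interaction. For NOD against B6 edgeR called 0 genes, with 901 at an unadjusted p under 0.05 and 29 called by DESeq2. The Aire-negative cells differed in make-up between strains: their summed level of 10 microfold markers was 831 to 975 CPM in the NOD and BALB/c mice and 5008 and 5314 CPM in the B6 mice, and that of 12 enterohepatic markers 184 to 415 CPM in NOD and BALB/c and 9582 and 8325 CPM in B6. In Aire-positive cells the microfold sum was 1358 to 3980 CPM and the enterohepatic sum 226 to 1758 CPM over the 6 mice. The part of this make-up in the interaction was not tested.

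Pglyrp1, a peptidoglycan recognition protein, gave the smallest adjusted p. It had 87.5 CPM in NOD 1, 63.9 in NOD 2, 842 in BALB/c 1, 377 in BALB/c 2, 139 in B6 1 and 62.9 in B6 2 in Aire-positive cells. Aire-negative cells had 296 CPM in NOD 1, 182 in NOD 2, 51 in BALB/c 1, 34.6 in BALB/c 2, 2376 in B6 1 and 1776 in B6 2. In BALB/c the Aire-positive cells were the higher class and in B6 and NOD the lower (log2 difference 8.48 ± 0.51 SE, edgeR adjusted p = 3.39e-05 for BALB/c against B6). Ccl9, a chemokine that marks microfold cells, had 3.98 CPM in NOD 1, 4.26 in NOD 2, 59.2 in BALB/c 1, 79.2 in BALB/c 2, 50.4 in B6 1 and 31.4 in B6 2 in Aire-positive cells. Aire-negative cells had 34.4 CPM in NOD 1, 4.13 in NOD 2, 1.28 in BALB/c 1, 5.1 in BALB/c 2, 269 in B6 1 and 228 in B6 2, with the same crossing between BALB/c and B6 (log2 difference 7.42 ± 0.72 SE, edgeR adjusted p = 0.00258). The richest of the 112 cells in Ccl9 was a cell of BALB/c 2 with 2 Aire UMIs, which also led Ccl6, Ccl20 and Sox8. Frmpd4, a synaptic scaffold, had 11.9 CPM in NOD 1, 4.26 in NOD 2, 8.46 in BALB/c 1, 4.24 in BALB/c 2, 416 in B6 1 and 2515 in B6 2 in Aire-positive cells. Aire-negative cells had 106 CPM in NOD 1, 123 in NOD 2, 459 in BALB/c 1, 296 in BALB/c 2, 602 in B6 1 and 1137 in B6 2 (log2 difference -5.93 ± 0.66 SE, edgeR adjusted p = 0.00751). B6 2 alone had a higher Aire-positive than Aire-negative value, and in BALB/c and NOD the Aire-positive values were far lower.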

How the data were processed

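The deposited matrix held raw UMI counts per gene and hashtag for 3447 barcodes, which the authors made with Cell Ranger 7.0.0 on mm10 per the file headers and the submitters' processing notes; no source used here names the annotation release. GENCODE M21 matched 54435 of the 55487 gene IDs by versioned ID and gave the coordinates and gene types. A barcode was assigned to a mouse where 1 of the 6 hashtags held at least 80% of at least 100 hashtag UMIs; droplets with mixed hashtags left the tests, and no doublet caller was run. All cells came from 1 library, so no barcodes were shared between libraries.

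Counts were summed per mouse and class and tested with edgeR 4.0.16 (quasi-likelihood, TMM, filtering by expression, Benjamini-Hochberg adjustment over all genes tested), with mouse as a block between classes and with at least 5 cells a sum. DESeq2 1.42.0 and HTODemux of Seurat 5.3.0 were alternatives, with other thresholds, a replicate block and leaving out each mouse. The scripts were tested on simulated data. A gene with 0 UMIs in a group was set against a limit of 3 UMIs over that group; the 95% intervals and limits cover counting error only. The mice were taken as separate animals, 2 a strain. For NOD this is an assumption, since the label writes replicate 1 for both hashtags. Exact permutation tests used scipy 1.17.1.

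Named genes were the listed genes and, per comparison, the largest folds (10 each way against Aire-negative cells, 5 otherwise) at 20 CPM or more with the same direction in every mouse or no overlap between strains, and the 5 smallest p of the interaction. The members and lists were chosen with earlier results of these data known. Some genes that the rule or the lists name are not reported here; list counts include them.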

Additional observations from a re-analysis of the deposited data

Results flagged for a closer look

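The difference between BALB/c and B6 was not the same in Aire-positive and Aire-negative cells for 5 named genes, by the edgeR test of the interaction. The adjusted p was 3.39e-05 for Pglyrp1, 0.00258 for Ccl9, 0.00751 for Frmpd4, and 0.00914 for both Ccl6 and Slit2. Ccl6, a chemokine, had 116 and 150 CPM in the Aire-positive cells of the BALB/c mice and 0 and 12.6 CPM in those of the B6 mice, against 17.3 and 5.38 CPM in Aire-negative cells of BALB/c and 163 and 480 CPM in those of B6. The call was lost without either B6 mouse. The same cell of BALB/c 2, with 2 Aire UMIs, was the richest in both Ccl6 and Ccl9. Slit2 had 0 UMIs in the Aire-positive cells of both BALB/c mice and 120 and 126 CPM in those of the B6 mice, against 623 and 645 CPM in Aire-negative cells of BALB/c and 744 and 859 CPM in those of B6. Between NOD and BALB/c the difference was not the same for Pglyrp1 (edgeR adjusted p = 0.00176).

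Hashtags that no mouse of the pool carried still gave UMIs in the 112 cells: HT4 had 67, HT9 had 245 and HT12 had 96, found in 26, 22 and 27 cells. Over all barcodes they had 3282, 3249 and 3303 UMIs. They took no part in assigning cells to mice.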

How the results depend on the processing

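The 3086 genes called against Aire-negative cells became 1989 when cells with 1 Aire UMI were counted as Aire-positive, and 1904 (without BALB/c 2) to 3256 with 1 mouse left out. Of 107 named genes that passed, 64 held in every setting. Cells rich in Ccl21a as the comparison, chosen after the data were seen, turned the log2 difference of Cxcl11 to -0.0138, Gng13 to 2.48, Krt10 to 0.33 and Elf3 to 0.86; counting cells with 1 Aire UMI turned Chga to 0.31 and Stxbp5l to 0.51. The cause was not tested. Against cycling cells 263 calls became 863 with no filter on low counts and 154 to 249 with 1 mouse left out.

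Strain counts rested on few cells and moved with most settings. For BALB/c against B6, 25 calls became 327 with no filter, 78 with DESeq2, 15 with a 90% hashtag share, 8 with HTODemux, 11 with at least 3 Aire UMIs and 13 to 79 with 1 mouse left out. For NOD against B6, 16 became 403 with no filter, 106 with DESeq2, 4 with a 90% share, 0 with HTODemux, 161 with at least 1 and 3 with at least 3 Aire UMIs, and 0 to 82 with 1 mouse left out. For NOD against BALB/c, 7 became 221 with no filter, 35 with DESeq2, 4 with HTODemux, 20 with at least 1 and 4 with at least 3 Aire UMIs, and 0 to 87 with 1 mouse left out. The replicate number as a block gave 53 calls for BALB/c against B6, 57 for NOD against B6 and 24 for NOD against BALB/c; same-numbered mice correlated at 0.0505 (BALB/c and B6), 0.216 (NOD and B6) and 0.148 (NOD and BALB/c). The labels tie a number to no shared litter, batch or day, and 1 of the 3 correlations was under 0.1, so the numbers were not read as pairs.

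For the interaction, BALB/c against B6 went to 271 calls with no filter, 81 with DESeq2 and 20 to 252 with 1 mouse left out, from 33; NOD against B6 to 200, 29 and 0 to 201, from 0; NOD against BALB/c to 105, 14 and 1 to 158, from 1. With 1 mouse left out, that strain rests on a lone mouse assumed to vary like the others. The largest difference in shares between strains was 3.96 to 4.94 percentage points. The genes per cell differed by -211.7 to -148.7 from Aire-negative and by -87.1 to -44.1 from cycling cells.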
